A study of Mus musculus with 9 samples.

Results

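The comparison described here is that of RNA recovered with nonspecific IgG, the background of an RNA immunoprecipitation, against total RNA of the embryonic cortex. It took 6 of the 9 arrays of the study, 3 IgG precipitates and 3 inputs, chosen by their titles. The remaining 3 arrays, RNA precipitated with an antibody to Pum2, a Pumilio-family RNA-binding protein, entered the fit and are given beside the IgG values where they bear on them. All samples came from cortices of CD1 mouse embryos labelled wild type at embryonic days 12 to 13, taken from timed pregnant mice. The antibody of the control precipitate was normal rabbit IgG, that of the other precipitate was rabbit anti-Pumilio2, and inputs had no antibody. The labels call the 3 samples of each group biological replicates and do not say how many embryos were pooled for each. Each gene was read as a log2 signal on the Mouse Gene 2.0 ST array, a whole-transcript expression array. Of 41345 features of the table, 23521 carried 1 gene symbol, and the brightest of these per gene gave 22180 genes.

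In an immunoprecipitation of RNA, a lysate is incubated with an antibody, the beads are washed and the RNA that stays with them is extracted. An IgG that recognises no RNA-binding protein still yields RNA, which sticks to the beads, the antibody or the tube, and this RNA is the level above which a specific antibody is judged. Because array signals are brought to a common scale, a signal tells the relative make-up of the RNA on an array and not how much RNA was recovered. "Higher" and "lower" below therefore mean a larger or smaller share of the labelled RNA than in input. As both groups came from bulk tissue, a signal does not tell which cells an RNA came from.

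In IgG over input, 1829 genes (8.25% of those tested) were higher and 2155 (9.72%) were lower at a limma adjusted p under 0.05. This call rule, with p-values adjusted over all 22180 genes and no fold threshold, is used throughout, and a value written with ± is a log2 difference and its standard error with n = 3 arrays per group. Of the 11090 genes with a mean signal at or above the median of all genes, 13.8% were higher and 17.8% lower. Most differences were small: 41 of the higher and 104 of the lower genes differed by 2-fold or more. The median difference over all genes was 0.016. In 32% of all genes, the 3 IgG arrays lay wholly above or wholly below the 3 input arrays. Across genes, which are not independent replicates, Pearson r was 0.995 between inputs, 0.994 between IgG precipitates and 0.988 to 0.989 between an IgG precipitate and an input. Between replicates, the SD of a gene had a median of 0.12 in IgG and 0.11 in input. Arrays carry no read depth, and precision here rests on the number of arrays and on the spread of each gene between replicates.

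The largest classes moved in opposite directions. Short mRNAs of housekeeping complexes were lower in IgG, with 196 of 270 genes called lower and 2 called higher. Long mRNAs were higher, with 67 of 178 called higher and 2 lower among membrane proteins, 23 of 38 higher and 0 lower among secreted matrix proteins, and 83 of 117 higher and 0 lower among other proteins. The words short and long describe the families as they are generally known, and no transcript or protein length was measured here. Noncoding RNAs did not move as 1 class: 6 of 12 small structural RNAs were lower, small nucleolar RNAs had calls in both directions, and 8 of 20 long nuclear and imprinted RNAs were higher.

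**Figure D1:**
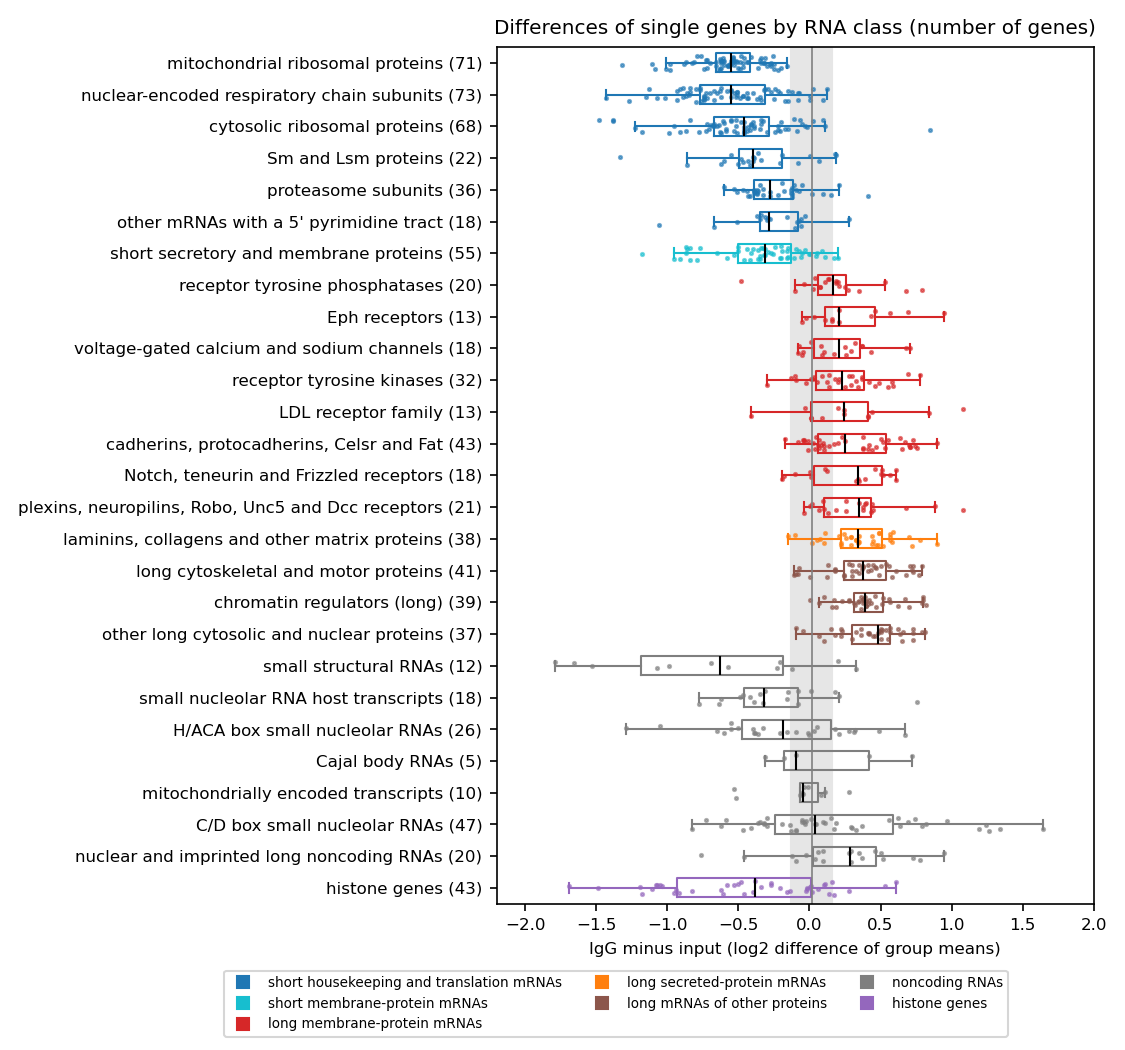
Log2 difference of the IgG mean from the input mean for each gene (points), with the median, quartiles and whiskers to the farthest point within 1.5 quartile ranges for each gene list, coloured by RNA class, the number of genes in parentheses. The grey band spans the quartiles of all 22180 genes (-0.13 to 0.16); the medians of the 7 lists of short mRNAs lie to its left and those of the long mRNA lists to its right.

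Cytosolic ribosomal proteins, which build the ribosome, had 48 of 68 genes lower and 1 higher, with a median difference of -0.46. Many mRNAs of this family start with a C followed by a run of pyrimidines, the terminal oligopyrimidine tract through which their translation is regulated by nutrients. The annotated starts of 4 members with such a run are shown because the run is a feature of this family, and below them are 2 genes of other lists that fell and whose start lacks it. Each sequence is from the RefSeq promoter table (GRCm38.p6) and runs from 10 bases before the annotated start to 20 bases from it, and the capitals mark the first 5 transcribed bases.
Fau, chr19:6057937-6057966, plus strand: gcccccacttCTTCCtctttcttgactcca
Rps18, chr17:33955646-33955675, minus strand: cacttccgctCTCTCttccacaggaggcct
Rpl35, chr2:39005112-39005141, minus strand: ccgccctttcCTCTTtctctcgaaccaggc
Rpl38, chr11:114668570-114668599, plus strand: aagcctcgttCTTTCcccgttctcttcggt
Mrps21, chr3:95871495-95871524, minus strand: ctcccgtcgcGGGACtccgtagcttccgct
Uqcr11, chr10:80406802-80406831, minus strand: cttcacgcatGCGCTatacgtctgcacatg

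A C at the annotated start followed by 4 pyrimidines, read on the transcribed strand only, stood at the start of 12 of the 53 cytosolic ribosomal protein genes with a promoter entry (22.6%). The same letters were at the start of 3.01% of all symbols in the promoter table and of 0 of 62 mitochondrial ribosomal protein genes. An annotated start may lie some bases from the one used in these cells, so a start without the run says only that these letters were not found there. Within the cytosolic ribosomal proteins, the median difference was -0.47 for the 12 genes with the run and -0.46 for the 41 without. The 12 genes with the run ranged widely: Rpl32l, the one that rose (0.85), carries it too, and Rps27 and Rplp2 differed by -0.028 and -0.17 and were not called, while Rps6 fell by 0.24 (limma adjusted p = 0.0309). Rps18, Rpl35 and Rpl38, the other genes printed above, differed by -0.95 ± 0.12, -0.62 ± 0.07 and -0.60 ± 0.07 (limma adjusted p = 5.21e-04, 3.32e-04 and 3.86e-04); all genes named for their start were chosen after their values were seen.

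Rpl37, a protein of the large ribosomal subunit, read 4.74, 4.65 and 5.06 in IgG and 6.25, 6.38 and 6.25 in input. It was lower (limma adjusted p = 7.61e-05), but its IgG mean, 4.82, lay below the 90th percentile of olfactory receptors in input, 4.89, so no fold is given against a signal that may not be above background. Rpl34, also of the large subunit, read 7.12, 6.78 and 6.94 in IgG against 8.34, 8.34 and 8.32 in input (-1.38 ± 0.11, limma adjusted p = 9.37e-05). Rps7, of the small subunit, differed by -1.18 ± 0.09 (limma adjusted p = 9.6e-05). In all 3 genes every IgG array lay below every input array. Fau, which encodes ribosomal protein S30 fused to a ubiquitin-like protein, fell by 0.67 (limma adjusted p = 2.12e-04), and its other feature, with a difference of -0.18, was not called. The only member that rose was Rpl32l, a gene named for its likeness to Rpl32, by 0.85 ± 0.14 (limma adjusted p = 0.00218). Ribosomal protein genes have many near-identical processed copies, so that probes may read several of them; the copy Rps15a-ps5 was 3.04-fold lower (limma adjusted p = 7.61e-05).

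Mitochondrial ribosomal proteins, which are encoded in the nucleus, had the highest share of lower genes among the lists: 62 of 71 genes were lower, 0 were higher, and all 71 differences were below 0. The median was -0.55. Mrpl54 was lowest, at 8.21, 8.08 and 8.03 in IgG and 9.47, 9.50 and 9.32 in input, a 2.5-fold difference (-1.32 ± 0.09, limma adjusted p = 7.61e-05). Mrps21 read 7.25, 7.25 and 7.23 in IgG and 8.19, 8.29 and 8.28 in input (-1.01 ± 0.08, limma adjusted p = 1.21e-04). In both genes the arrays of the groups stood well apart. The least changed member, Mrpl19, differed by -0.16 ± 0.10 and was not called.

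Nuclear-encoded subunits of the respiratory chain and ATP synthase, the complexes of oxidative phosphorylation, had 55 of 73 genes lower and 0 higher, with a median of -0.55. Uqcr11, a small subunit of complex III, read 8.30, 8.36 and 8.22 in IgG and 9.40, 9.24 and 9.31 in input (-1.02 ± 0.07, limma adjusted p = 7.61e-05). Cox5b, a subunit of cytochrome c oxidase, fell by 1.13 (limma adjusted p = 1.06e-04); its second feature differed by -0.66 and was not called. Atp5mpl and Uqcrh fell by 1.07 and 0.89. The highest value in the list was that of Ndufs1, which encodes the largest subunit of complex I, at 0.12 ± 0.12 and not called. Uqcc2, an assembly factor of complex III that stands in no list, fell by 1.53 ± 0.08 (limma adjusted p = 5.92e-05), with 8.28, 8.28 and 8.21 in IgG against 9.83, 9.85 and 9.68 in input.

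Sm and Lsm proteins, most of which form the rings around spliceosomal and decay RNAs, had 14 of 22 genes lower and 0 higher (median -0.40). Lsm5 read 6.81, 6.57 and 6.68 in IgG and 8.03, 8.12 and 7.91 in input, with no overlap (-1.33 ± 0.10, limma adjusted p = 7.61e-05). Gemin6, a partner of these proteins in the SMN complex, was lower by 1.57 ± 0.14 (limma adjusted p = 1.51e-04), and its second feature fell by 1.00. Among other mRNAs known for a terminal pyrimidine tract, 9 of 18 were lower and 1 was higher (median -0.29). Tpt1, the translationally controlled tumour protein, fell by 1.06 ± 0.11 (limma adjusted p = 2.35e-04), while its other feature differed by -0.24 and was not called. Eif3k and Eif3f, subunits of an initiation factor, fell by 0.67 and 0.51. The member that rose was Pabpc1, the poly(A)-binding protein, by 0.28 ± 0.08 (limma adjusted p = 0.0469), a call that ended without any 1 of 5 arrays (IgG replicates 1 and 2 and each input replicate, 0.21 to 0.30).

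Proteasome subunits, which degrade proteins tagged with ubiquitin, had 17 of 36 genes lower, 1 higher and 18 not called, with a median of -0.28. When quantile normalization was run again, 11 were lower. The barrel of the 20S core, made of small Psma and Psmb subunits, had 11 of 16 lower (median -0.37), and the 19S regulatory particle, with larger subunits, had 6 of 20 lower and 1 higher (median -0.13). Whether the particles differ was not tested. Psmb3, of the core, fell by 0.60 ± 0.09 (limma adjusted p = 0.00139). Psmd11, of the regulatory particle, was higher by 0.41 ± 0.07 (limma adjusted p = 0.00315), with 11.30, 11.32 and 11.36 in IgG against 10.95, 10.84 and 10.95 in input.

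Short mRNAs of membrane and secretory proteins were also lower. A list of 55 short proteins of the secretory pathway and of membranes had 27 genes lower and 0 higher, with a median of -0.31. Timm8b, which the list counts although it is a chaperone of the mitochondrial intermembrane space, read 10.41, 10.35 and 10.33 in IgG. In input it read 11.20, 11.27 and 11.14 (-0.84 ± 0.07, limma adjusted p = 1.45e-04). Ssr4, a subunit of the translocon-associated complex of the endoplasmic reticulum, and Sec61g, a subunit of the translocon itself, fell by 0.84 and 0.79. Bet1, which serves transport from the endoplasmic reticulum to the Golgi, fell by 0.87, and Lamtor1, the membrane anchor of the Ragulator complex on lysosomes, by 0.91. The lowest value, -1.18 ± 0.44 for Sec61b, was not called (limma adjusted p = 0.0968), with overlapping arrays of 5.72 to 7.37 in IgG and 7.37 to 8.65 in input.

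**Figure D2:**
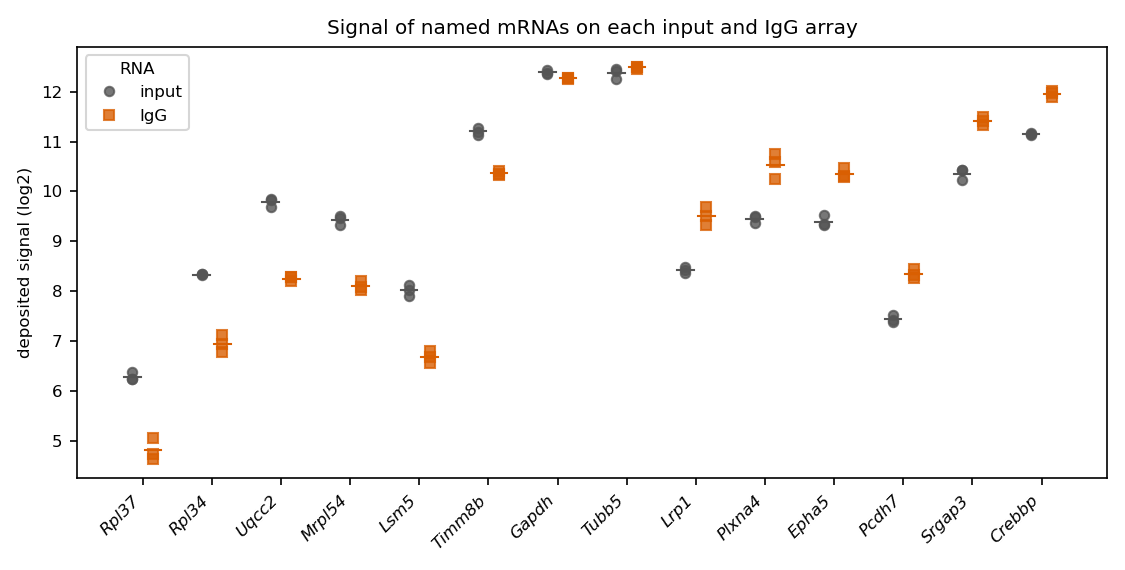
Deposited log2 signal on each of the 3 input (grey circles) and 3 IgG (orange squares) arrays for 14 named mRNAs, with group means as lines; levels of different genes are not comparable. The 6 short mRNAs on the left read lower on every IgG array, and the 6 mRNAs on the right read higher on every IgG array. Gapdh and Tubb5 differ by -0.12 and 0.11 and were not called. Their IgG arrays also lie all below (Gapdh) or all above (Tubb5) the input arrays.

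Long membrane-protein mRNAs were higher across most receptor and adhesion families of the developing cortex. Of 178 genes, 37.6% were called higher, against 8.25% of all genes tested, and the median was 0.23. Of these genes, 130 had a mean signal at or above the median of all genes, 6.08, and among them the median was 0.35. Plexins, neuropilins, Robo, Unc5 and Dcc, the receptors of axon guidance, had 11 of 21 genes higher and 0 lower (median 0.35). Plxna4, a semaphorin receptor, read 10.25, 10.59 and 10.76 in IgG and 9.49, 9.37 and 9.50 in input, 2.12-fold higher (1.08 ± 0.12, limma adjusted p = 2.83e-04). Nrp2, a coreceptor for semaphorins, rose by 0.88 ± 0.09 (limma adjusted p = 2.59e-04). All IgG arrays of both genes lay above all input arrays.

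Cadherins, protocadherins, Celsr and Fat, which hold cells together and set their polarity, had 19 of 43 genes higher and 0 lower (median 0.25). Pcdh7 read 8.26, 8.33 and 8.44 in IgG and 7.53, 7.42 and 7.38 in input (0.90 ± 0.08, limma adjusted p = 1.38e-04). Celsr1, a core protein of planar polarity, rose by 0.73, and Dchs1 and Fat1 each by 0.71. Notch, teneurin and Frizzled receptors had 10 of 18 higher and 0 lower (median 0.34). Notch2 and Notch1, which keep radial precursors undifferentiated, rose by 0.61 ± 0.08 and 0.52 ± 0.09 (limma adjusted p = 8.77e-04 and 0.00238). Fzd8, a Wnt receptor, rose by 0.50 ± 0.07 (limma adjusted p = 0.00129).

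Eph receptors, which read ephrins on neighbouring cells, had 4 of 13 higher and 0 lower (median 0.21). Epha5 was highest, at 10.28, 10.30 and 10.47 in IgG and 9.34, 9.33 and 9.52 in input (0.95 ± 0.08, limma adjusted p = 1.51e-04). Epha4 rose by 0.69 and Epha7 by 0.57. The LDL receptor family had 4 of 13 higher and 1 lower (median 0.24). Lrp1, an endocytic receptor with a very large ectodomain, read 9.32, 9.68 and 9.50 in IgG against 8.49, 8.42 and 8.36 in input, 2.11-fold higher (1.08 ± 0.10, limma adjusted p = 1.9e-04). Sorl1, a sorting receptor, rose by 0.84 ± 0.08. Lrp8, which receives reelin, rose by 0.44 ± 0.09 (limma adjusted p = 0.00794). The member that fell was Lrp11, by 0.41 ± 0.09 (limma adjusted p = 0.0129), and its other feature differed by 0.18 and was not called.

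Receptor tyrosine kinases outside the Eph family had 11 of 32 higher and 1 lower (median 0.23). Igf1r read 9.13, 9.49 and 9.41 in IgG and 8.65, 8.59 and 8.46 in input (0.78 ± 0.10, limma adjusted p = 6.74e-04). Insr, the insulin receptor, rose by 0.59 and Kit by 0.55. Axl was the member that fell, by 0.30 ± 0.07 (limma adjusted p = 0.013), a call that ended without input replicate 2 (-0.28). Receptor tyrosine phosphatases had 3 of 20 higher and 0 lower (median 0.17), among them Ptprz1 of radial precursors, by 0.68 ± 0.09 (limma adjusted p = 7.34e-04). The pore-forming subunits of voltage-gated calcium and sodium channels had 5 of 18 higher and 0 lower (median 0.21), and 3 higher without IgG replicate 3 or without input replicate 2. Cacna1b, of N-type calcium channels, rose by 0.71 ± 0.09 (limma adjusted p = 7.24e-04). Gabra2, a subunit of the GABA-A receptor that stands in no list, read 8.37, 8.54 and 8.46 in IgG and 6.87, 7.11 and 6.65 in input, 3.00-fold higher (1.58 ± 0.12, limma adjusted p = 8.64e-05).

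Long mRNAs of secreted matrix proteins had 23 of 38 genes higher (60.5%) and 0 lower, with a median of 0.34; without input replicate 2 the count was 15. Reln, the reelin secreted by Cajal-Retzius cells, read 8.50, 8.79 and 8.93 in IgG and 8.01, 7.83 and 8.05 in input (0.78 ± 0.12, limma adjusted p = 0.00137). Lamb2 and Lama5, laminin chains of the basement membrane, rose by 0.70 and 0.57, and Fn1, fibronectin, by 0.49.

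Long mRNAs of proteins that are mostly neither secreted nor in a membrane were higher too. Chromatin regulators had 30 of 39 genes higher and 0 lower (median 0.39). Crebbp, a histone acetyltransferase, read 11.90, 11.97 and 12.01 in IgG and 11.16, 11.13 and 11.18 in input (0.80 ± 0.07, limma adjusted p = 1.27e-04). Kmt2e rose by 0.79, Arid2, a subunit of a SWI/SNF remodelling complex, by 0.80, and Tet1, which oxidises methylated cytosine, by 0.82. Large cytoskeletal and motor proteins had 26 of 41 higher and 0 lower (median 0.38), with Ank3, an ankyrin of the axon initial segment, up by 0.73 ± 0.09 (limma adjusted p = 4.38e-04) and Kif1a, a kinesin of synaptic vesicle precursors, by 0.50 ± 0.07 (limma adjusted p = 7.26e-04). Other large cytosolic and nuclear proteins had 27 of 37 higher and 0 lower (median 0.48). Herc2 and Mycbp2, ubiquitin ligases, rose by 0.81 and 0.79, and Prpf8, the core protein of the spliceosome, by 0.64. In total 70.9% of the 117 genes were higher, where 8.25% of all genes were. A mean at or above the median of all genes was found for 113 of the 117, and 13.8% of all such genes were higher.

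The class medians were as separate as the gene values when read array by array. Relative to the mean input of each gene, the median of the short housekeeping mRNAs was -0.43, -0.53 and -0.50 on the IgG arrays and -0.002, 0.008 and -0.005 on the input arrays. The median of long membrane-protein mRNAs was 0.17, 0.26 and 0.28 on the IgG arrays and 0.015, 0.011 and -0.021 on the input arrays. That of other long mRNAs was 0.34, 0.41 and 0.47 against 0.034, -0.026 and -0.001. No IgG array overlapped an input array in any of these classes. The 3 values of a class rest on the same RNA samples and are no independent support for it.

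**Figure D3:**
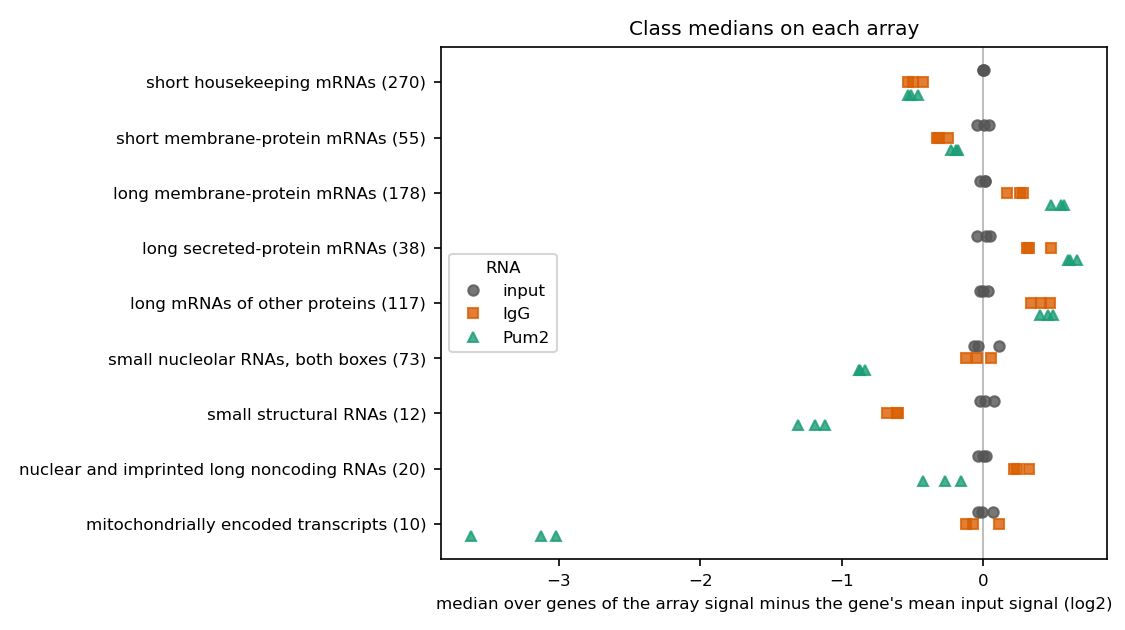
Median over the genes of a class of the log2 signal on an array minus the gene's mean input signal, for each of the 3 input (grey circles), IgG (orange squares) and Pum2 (green triangles) arrays, with the number of genes in parentheses. On the IgG arrays the short mRNA classes lie below 0 and the long mRNA classes above 0; mitochondrially encoded transcripts lie near 0 on the IgG arrays and between -3.02 and -3.62 on the Pum2 arrays.

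Some of the largest differences lay outside the lists. Phxr4 rose most of the genes at or above the median level, from 6.14, 5.91 and 6.10 in input to 8.31, 8.18 and 8.28 in IgG, 4.61-fold (2.20 ± 0.14, limma adjusted p = 6.54e-05). Fam160b2 and Smarcal1, a DNA annealing helicase of stalled replication forks, rose by 1.30 ± 0.09 and 1.13 ± 0.08 (limma adjusted p = 6.54e-05 and 7.86e-05). Srgap3, a GTPase-activating protein of neuronal outgrowth, read 11.34, 11.49 and 11.42 in IgG and 10.42, 10.43 and 10.22 in input (1.05 ± 0.11, limma adjusted p = 2.96e-04). Runx1t1, a transcriptional corepressor, rose by 1.07 and Ebf1, a transcription factor, by 1.04.
In the other direction, Wbp2, a WW-domain binding protein, read 8.41, 8.05 and 8.27 in IgG and 9.85, 9.86 and 9.94 in input, 3.11-fold lower (-1.64 ± 0.11, limma adjusted p = 7.31e-05). Myl6, a light chain of nonmuscle myosin, fell by 1.49 ± 0.17 (limma adjusted p = 3.66e-04). Among genes often used as references, Hprt fell by 0.56 ± 0.08 (limma adjusted p = 0.001). Gapdh (-0.12 ± 0.07), Actb (-0.22 ± 0.13), Pgk1 (-0.12 ± 0.12) and Tubb5 (0.11 ± 0.08) were not called, and Tubb5 was called higher (0.25) when quantile normalization was run again.

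Small structural RNAs, the RNA parts of enzymes and particles, were lower: 6 of 12 were called lower and 0 higher, with a median of -0.63. Terc, the template RNA of telomerase, read 6.47, 7.57 and 7.69 in IgG and 8.63, 9.24 and 9.25 in input (-1.79 ± 0.30, limma adjusted p = 0.00246). Rny1, a Y RNA bound by the Ro protein, read 10.31, 11.27 and 10.84 in IgG and 12.39, 12.44 and 12.55 in input (-1.66 ± 0.25, limma adjusted p = 0.00156). In both, IgG replicate 1 was the lowest array, and no IgG array reached an input array. Rpph1, the RNA of ribonuclease P, fell by 1.07 ± 0.16 (limma adjusted p = 0.00135) and Rnu12, the U12 RNA of the minor spliceosome, by 0.69 ± 0.07 (limma adjusted p = 2.51e-04). The vault RNA Vaultrc5 was also called lower (limma adjusted p = 3.03e-04), with 3.05 to 3.78 in IgG and 4.70 to 5.01 in input, at the level of olfactory receptors, so that its difference may be bounded by background. Rn7sk, the RNA that holds an elongation factor inactive, read 13.65, 13.62 and 13.64 in IgG and 13.44, 13.41 and 13.46 in input (0.20 ± 0.11) and was not called, nor was Rny3 (-0.23 ± 0.15).

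Small nucleolar RNAs guide the modification of ribosomal RNA, those with C and D boxes its methylation and those with H and ACA boxes its pseudouridylation. Of 47 C/D box RNAs, 12 were higher (25.5%, against 8.25% of all genes) and 5 lower (10.6%, near the 9.72% of all genes), with a median of 0.039. Of 26 H/ACA box RNAs, 2 were higher (7.69%, near the share of all genes) and 5 lower (19.2%), with a median of -0.18. The lower counts moved with single arrays: for C/D box RNAs to 3 without IgG replicate 3, input replicate 1 or input replicate 2, and for H/ACA box RNAs to 9 without IgG replicate 1 and 8 without input replicate 3. The difference between the kinds was not tested. Over all 73, 19.2% were higher and 13.7% lower, with a median of -0.024 that changed sign with single arrays left out. Snord61 rose from 7.53, 7.46 and 7.32 in input to 8.91, 8.61 and 8.57 in IgG, 2.39-fold (1.26 ± 0.11, limma adjusted p = 1.63e-04). Snord118, the U8 RNA needed to process the large ribosomal RNA, read 6.80, 7.30 and 7.57 in IgG and 6.14, 5.83 and 6.13 in input (1.19 ± 0.20, limma adjusted p = 0.00258). Snord90 rose by 1.64 ± 0.20 from an input signal of 2.94 to 2.99, far below the median of all genes. Snora34 fell from 10.98, 11.17 and 11.05 in input to 10.08, 10.04 and 9.94 in IgG, 2.07-fold (-1.05 ± 0.08, limma adjusted p = 8.64e-05), and Snora28 fell by 1.29 ± 0.13 (limma adjusted p = 1.98e-04). Members of each direction had IgG arrays wholly outside the input arrays, as had 32% of all genes. Of the 5 Cajal body RNAs, Scarna8 (0.72 ± 0.22) and Scarna17 (0.42 ± 0.13) were called higher, both at a limma adjusted p of 0.0481. Each call was lost without any 1 of 5 arrays. These were all but IgG replicate 1 for Scarna8 (0.45 to 0.84) and all but input replicate 1 for Scarna17 (0.32 to 0.48). A second feature of Scarna17 differed by 0.36 and was not called. Scarna10, Scarna2 and Scarna6 were not called (-0.10, -0.18 and -0.31).

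**Figure D4:**
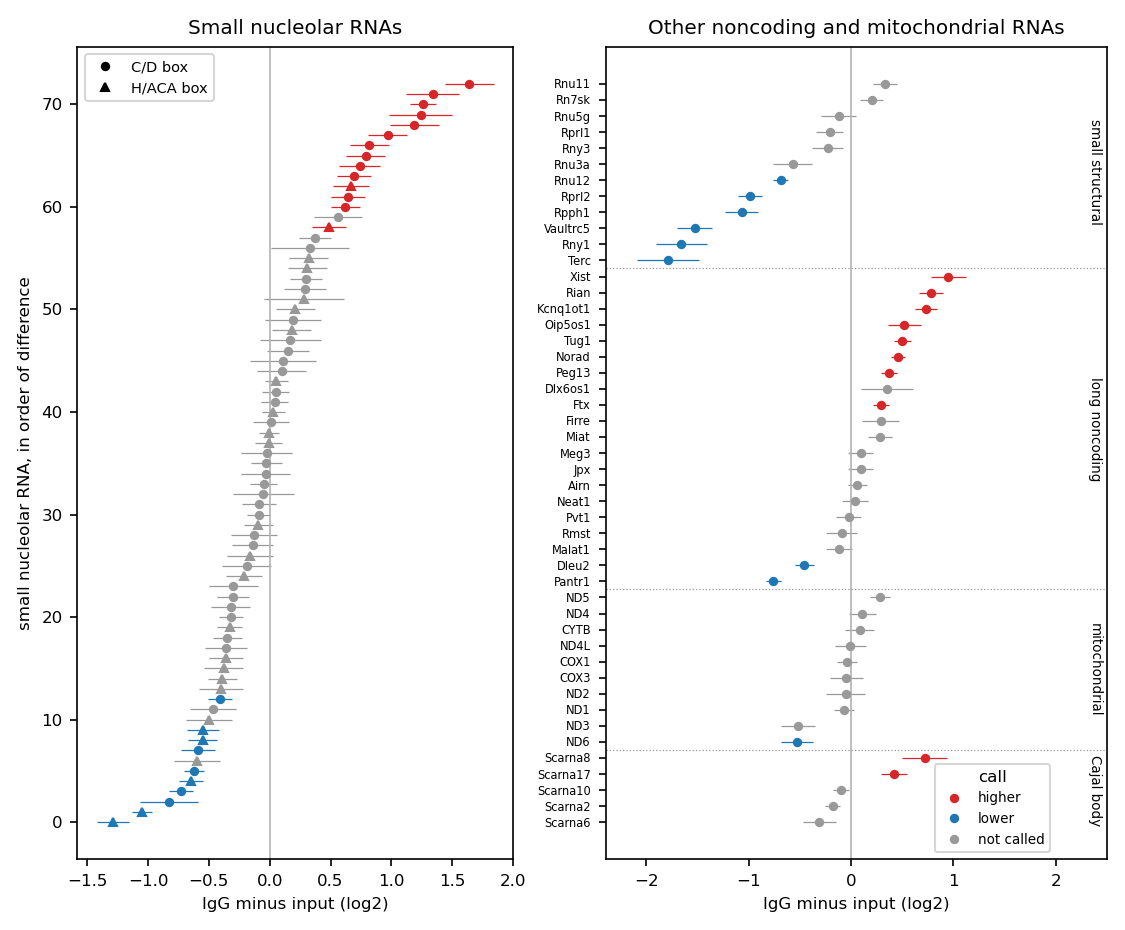
Log2 difference of IgG from input with its standard error for 73 small nucleolar RNAs in order of difference (left; circles for C/D box, triangles for H/ACA box) and for small structural, long noncoding, mitochondrially encoded and Cajal body RNAs (right), red where called higher and blue where called lower. The small nucleolar RNAs run from -1.29 to 1.64 through 0, the 6 called structural RNAs are all lower, and 9 of 10 mitochondrial transcripts are not called.

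Transcripts that host small nucleolar RNAs in their introns, spliced and mostly short, had 6 of 18 lower and 1 higher (median -0.32). The lower share was 33.3%, against 9.72% of all genes, and the higher share 5.56%, below the 8.25% of all genes. Snhg18 fell by 0.78 ± 0.08 (limma adjusted p = 2.79e-04), and Zfas1 by 0.62 ± 0.08 (limma adjusted p = 7.75e-04). A second feature of Zfas1 differed by -0.61 ± 0.24 and was not called. Snhg14, the very long imprinted transcript of the Prader-Willi and Angelman locus, was the one that rose, reading 11.66, 11.29 and 11.41 in IgG against 10.63, 10.73 and 10.71 in input (0.76 ± 0.10, limma adjusted p = 7.56e-04). Nuclear and imprinted long noncoding RNAs had 8 of 20 higher and 2 lower (median 0.28). The higher share was 40%, against 8.25% of all genes, and the lower share 10%, near the 9.72% of all genes. Xist, which coats the inactive X chromosome, read 8.73, 9.34 and 9.17 in IgG and 7.85, 8.32 and 8.21 in input (0.95 ± 0.17, limma adjusted p = 0.00349). Embryo sex, on which the Xist signal depends, did not enter the fit. Rian and Kcnq1ot1, imprinted transcripts, rose by 0.78 and 0.73, Tug1 by 0.50 and Norad, which carries many Pumilio sites, by 0.46. Pantr1 and Dleu2 fell by 0.76 and 0.46. A second feature of Dleu2 differed by -0.22 and was not called, while a second feature of Norad rose by 0.72. Malat1 (-0.12 ± 0.13), Neat1 (0.038 ± 0.13) and Meg3 (0.093 ± 0.12) were not called.

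MicroRNA rows hold probes to precursor loci, and 70 of 478 had a mean at or above the median of all genes. Of the 478, 38 (7.95%) were higher and 14 (2.93%) lower, near or below the shares of all genes, and the higher count was 22 without input replicate 2. The miR-9 precursor Mir9-1, abundant in the embryonic brain, read 8.70, 8.52 and 7.84 in IgG and 6.78, 6.61 and 6.55 in input (1.70 ± 0.20, limma adjusted p = 4.29e-04). The let-7 family was looked at after its values were seen: 3 of 11 rows were lower and 8 were not called. Mirlet7a-1 read 6.34, 6.33 and 6.43 in IgG and 7.19, 6.96 and 6.74 in input (-0.60 ± 0.12, limma adjusted p = 0.00556). Mirlet7a-2, another let-7a locus, differed by 0.27 ± 0.16 and was not called. Mir9-1 was read from the brighter of its 2 features. The mature sequences are from RefSeq (GRCm38.p6), with the seed, bases 2 to 8, in capitals. They are shown because Mir9-1 and Mirlet7a-1 moved in opposite directions and are among the best known loci of the developing brain. The pair was picked after its values were seen, and a difference between the families was not tested.
miR-9-5p, chr3:88215613-88215635, plus strand: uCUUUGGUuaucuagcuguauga
let-7a-5p, chr13:48538239-48538260, minus strand: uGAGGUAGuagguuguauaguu

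Mitochondrially encoded transcripts are made inside the organelle and translated there. They had a median of -0.043 and 1 of 10 called lower, near the 9.72% of all genes. Cox1, the catalytic subunit of cytochrome c oxidase, listed as COX1, read 13.24, 13.37 and 13.18 in IgG and 13.32, 13.28 and 13.31 in input, and the groups overlapped. CYTB differed by 0.082 ± 0.14 and ND5 by 0.28 ± 0.10, neither called. ND6, from the other strand of the mitochondrial genome, was called lower by 0.53 ± 0.16 (limma adjusted p = 0.0468), a call that ended without any 1 of 4 arrays (IgG replicates 1 and 3, input replicates 1 and 2, -0.47 to -0.49).

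The Pum2 precipitates give the same classes with another antibody. In Pum2 over IgG, 4296 genes (19.4%) were higher and 2519 (11.4%) lower; this comparison shares the IgG arrays with IgG over input, so values are only set side by side. Short housekeeping mRNAs differed by a median of -0.48 in IgG over input and -0.004 in Pum2 over IgG, with 74 and 81 of 270 called higher and lower in the latter. Its families went different ways there: cytosolic ribosomal proteins had 5 of 68 higher and 31 lower (median -0.21), and proteasome subunits 25 of 36 higher and 1 lower (median 0.34). Long mRNAs of other proteins differed by 0.41 and 0.027. Long membrane-protein mRNAs differed by 0.23 and then by a further 0.26, with 79 of 178 higher and 5 lower in Pum2 over IgG. Wbp2 read 9.98, 10.03 and 10.30 with Pum2, as high as in input, and was 1.86 higher than in IgG (limma adjusted p = 3.88e-06). Rpl34, one of the 5 higher cytosolic ribosomal proteins, was 0.87 higher with Pum2 than with IgG (limma adjusted p = 1.83e-04), and Plxna4 and Lrp1 differed by -0.22 and -0.05 and were not called.

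Small nucleolar RNAs differed by a median of -0.024 in IgG over input and -1.03 in Pum2 over IgG, where 53 of 73 were lower and 0 higher. Snord61 read 4.73, 4.98 and 4.97 with Pum2, below input as well as IgG. Rpph1, which read 11.80, 12.09 and 12.05 with IgG, had a mean of 7.60 with Pum2 (-4.38, limma adjusted p = 2.4e-07). Mitochondrially encoded transcripts differed by -0.043 in IgG over input and -3.27 in Pum2 over IgG, where all 10 were lower. The Pum2 transcript itself was higher in IgG than in input by 0.61 ± 0.09 (limma adjusted p = 0.00148).

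Markers of the cell types of the dissected tissue were checked on the same arrays. All 10 markers of radial precursors and 9 of 10 of intermediate progenitors and young cortical neurons had a mean signal at or above the median of all genes, as had 3 of 8 of the ganglionic eminence. Pax6 read 9.50, 9.43 and 9.58 in IgG and 9.52, 9.49 and 9.49 in input. In IgG over input, 1 of 10 markers of radial precursors was called higher and 2 lower, and 3 of 10 of young neurons higher and 2 lower. Of all genes, 8.25% were higher and 9.72% lower. Bcl11b, a factor of subcerebral neurons, rose by 0.86 ± 0.08 and Tbr1, of deep-layer neurons, by 0.53 ± 0.08, while Stmn2, a short neuronal mRNA, fell by 0.46 ± 0.09 and Hes5, a Notch target, by 0.46 ± 0.08 (limma adjusted p = 1.75e-04, 0.00201, 0.00474 and 0.00352); a second feature of Hes5 differed by -0.04 and was not called. Of the markers of other cells in the dissection, 3 of 8 of meninges were higher and 0 lower, all 3 of them collagen genes (Col1a1, Col1a2 and Col3a1) that also stand in the matrix list. The call of Col1a1 ended without any 1 of 4 arrays (IgG replicates 2 and 3, input replicates 1 and 2), and a second feature of Col1a2 differed by -0.12. Endothelium had 1 of 9 higher and 1 lower, each 11.1% and near the shares of all genes. Cajal-Retzius cells had 2 of 6 higher and 1 lower. Microglia had 1 of 10 higher and 0 lower, a share near that of all genes, while 7 of the 10 differences were below 0 (median -0.28); without IgG replicate 2 the counts were 0 higher and 2 lower, and without input replicate 3 they were 1 and 2. Red blood cells had 0 of 4 called in either direction (median -0.29), and 1 lower without IgG replicate 2. The median of the meningeal markers relative to mean input was 0.08, 0.009 and 0.30 on the IgG arrays and -0.025 to 0.029 on the input arrays, and their part in the higher matrix mRNAs was not tested.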

How the data were processed

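RNA of 3 input, 3 IgG and 3 Pum2 samples was measured on Mouse Gene 2.0 ST arrays. A commercial kit served for immunoprecipitation, per the labels' protocols, and cDNA was amplified with a kit for small amounts. The deposited values are log2 signals that the authors made with RMA in Affymetrix Expression Console, per the submitters' processing notes; for versions and genome build, the sources used here give none. RMA corrects background, gives the arrays a common distribution and summarises probes, which makes values relative. No further normalization was applied; array medians over genes were 6.05 to 6.08.

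Features were named from the platform's probe table. Of 41345 features, 1814 carried several symbols and 16010 are unnamed here; 1082 genes had more than 1 feature and were read from the one with the highest mean. Of the 22180 genes, 21994 were found in the RefSeq table, all with the same symbol. Genes were tested with limma 3.58.1 (R 4.3.3) in 1 fit of 9 arrays and 3 groups without a block (6 residual and 3.99 prior degrees of freedom), with Benjamini-Hochberg adjustment. The p-values reflect how far replicate arrays of a group spread. With 3 arrays against 3, exact permutation gives no p under 0.1. The fit was checked on simulated data.

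Gene lists were written from general knowledge, and the comparison, the members and the lists were chosen with earlier results of these data known; lists are described by counts and medians only. Host genes of microRNAs and a gene of another kind, both matched by name pattern, were taken out of the microRNA and mitochondrial lists. Named genes are the 15 largest called differences in each direction with separate arrays and a mean of at least 6.08 (provisional, olfactory and small RNA names left out), up to 6 called members per list and direction by moderated t, 6 small RNAs per direction, and 6 genes always included; others are named as the extremes of their list or as well-known members, after their values were seen. Planned classes by protein length were not run, because no protein table was used here. The labels state no pairing of samples beyond the replicate number, and none was assumed. Correlations of deviations from group means were 0.019, 0.186 and 0.26 for the same number and -0.234 to 0.026 for different numbers. With 3 arrays per group, these values do not settle whether samples were paired. Alternatives were the block, the arrays, genes and prior in the fit, scaling, centring, feature choice, a fold threshold, each array left out, and, added after seeing the data, a fit of every feature.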

Additional observations from a re-analysis of the deposited data

How the results depend on the processing

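With a difference of at least 1.5-fold required besides, 422 genes were higher and 663 lower. With the replicate block, 1856 genes were higher and 2170 lower and 4 of 224 named calls were lost. IgG replicates 2 and 3 correlated best with the input of their own number (0.186 and 0.26). IgG replicate 1 did not (0.026 with input replicate 2, 0.019 with input replicate 1). Leaving out 1 array gave 1334 to 1644 higher and 1707 to 1971 lower genes, and lost 9 to 18 of the 224 named calls. A fit of all features, added after seeing the data, gave 2474 higher and 2950 lower features. In that fit 3 genes, Clmp, Sort1 and Syne1 of the cytoskeletal list, had features called in opposite directions. Among genes at or above the median level, the median rose to 0.35 for long membrane-protein and 0.44 for long secreted-protein mRNAs. The median of short membrane-protein mRNAs was -0.26 when quantile normalization was run again and -0.27 to -0.32 with 1 array left out. The medians of the 6 main classes otherwise moved by less than 1 SD of that class's median over replicate arrays; that of the small nucleolar RNAs, near 0, went from -0.061 to 0.048 with 1 array left out and to 0.0003 with centring on the brighter genes. With the replicate block, 2 of 4 red blood cell markers were lower, and with only IgG and input arrays in the fit, 3 of 18 channel genes and 24 microRNA rows were higher. The share of calls that were higher went from 45.9% to between 42.7% and 51.5%. No named call changed direction under the alternatives that were run. The alternative for hydrophobic segments was not run, for lack of a protein table. Dim genes, such as most microRNA rows, lie where signal over background limits what a difference means.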

Other observations

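Histone genes were lower: 18 of 43 were called lower and 1 higher, with a median of -0.38. H4f16, a gene named as an H4 histone that stands outside the list, read 9.11, 9.38 and 9.37 in IgG and 11.27, 11.24 and 11.60 in input (-2.08 ± 0.12, limma adjusted p = 6.54e-05), with a second feature at -0.62. H2ax, the variant marked at DNA breaks, fell by 0.83 ± 0.08 and read 12.83, 12.80 and 12.93 with Pum2 against 12.86, 12.82 and 12.89 in input. Histone genes are near-identical, so that single members cannot be told apart with certainty. Of 171 genes annotated as pseudogenes, 46 (26.9%) were lower and 4 (2.34%) higher, against 9.72% and 8.25% of all genes.

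Olfactory receptors, 21 of which had a mean at or above the median of all genes, had 50 of 1088 higher (4.6%) and 6 lower (0.551%), below the 8.25% and 9.72% of all genes, with a median of 0.078. The higher count was 33 without input replicate 2, and the lower count 12 without IgG replicate 1. Features without a name were also called, 859 higher and 782 lower of 16010.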
